A study of Mus musculus with 6 samples.

Results

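The genes described here are 9 members of the IL-6 cytokine family and its receptors, chosen by gene symbol from the 25206 gene-level features of the arrays: the ligands Il6, Osm, Lif, Clcf1 and Il11 and the receptor chains Il6ra, Il6st, Osmr and Lifr. Each symbol had 1 feature, so all 9 were measured. They were read in thioglycollate-elicited peritoneal macrophages of C57BL/6J mice, taken on day 4 after 1 mL of 4% Brewer's medium had been injected into the peritoneum, an irritant that draws monocytes and macrophages into the abdominal cavity. One group of 3 cultures came from Tet2-/- mice and the other 3 from wild-type littermates. All 6 cultures were grown with 10% fetal bovine serum and were stimulated for 10 h with lipopolysaccharide at 10 ng/mL plus interferon gamma at 2 ng/mL, so every value describes the stimulated state and no unstimulated culture was compared. The Tet2 allele, and whether it is deleted in all tissues, are not stated in the sources used here.

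Each of these ligands signals through the shared receptor chain gp130, the product of Il6st. IL-6 first binds its own receptor chain, the product of Il6ra, whereas oncostatin M and LIF pair gp130 with the chains encoded by Osmr and Lifr, respectively. The assembled receptor activates Janus kinases and the transcription factor STAT3, which induces its own inhibitor Socs3. Macrophages are a major source of IL-6 and oncostatin M after contact with bacterial lipopolysaccharide, while LIF, IL-11 and the oncostatin M receptor are best known from stromal cells. The question was which of these transcripts differ in level with the Tet2 genotype once the cells are stimulated.

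The values are log2 expression, 1 array per culture, with array medians between 3.47 and 3.66. A change is the Tet2-deficient mean minus the wild-type mean on this scale, with the standard error of a limma fit over all 25206 features, and a gene was called changed at an adjusted p under 0.05. The Tet2 feature did not check the labels: it read 5.55, 5.25 and 5.75 in Tet2-deficient arrays against 5.40, 5.07 and 5.10 in wild-type arrays (change 0.32 ± 0.16, limma adjusted p = 0.365), and the place of its probes relative to the deletion is not given. All directions therefore rest on the labels. Over 8 measured macrophage markers the mean was 9.38 to 9.54 in the Tet2-deficient arrays and 9.28 to 9.33 in the wild-type arrays, and 0 of the 8 lay below the array median throughout. By contrast, 8 of 11 neutrophil markers, 8 of 9 markers of T and NK cells and 9 of 10 of mast cells and eosinophils lay below the median in all 6 arrays, as did 3 of 7 B cell and 2 of 6 endothelial markers, and 0 genes of these 5 lists were called.

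Transcripts of Il6 and Osm rose in the Tet2-deficient macrophages, to 2.46-fold and 2.35-fold the wild-type level, and the other 7 members did not pass the test. The 2 called members, both ligands and both higher, stand beside 0.952% of all features called, 0.647% higher and 0.305% lower. Over all features 67.9% of calls were higher, or 78.8% with each array centred on its median; the directions of Il6 and Osm were the same under either scaling. In 7 of the 9 members the 3 Tet2-deficient arrays all lay above the 3 wild-type arrays, a pattern found in 9.74% of all features. In 0 members did they all lie below, a pattern found in 12.2% of all features. The median change of the 9 was 0.44, against -0.04 over all features. In bulk cultures fewer cells of a type and less RNA per cell cannot be told apart. Changes were above 0 for 8 members and below 0 for Il11 alone, whereas 42.1% of all features had a change above 0.

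**Figure D1:**
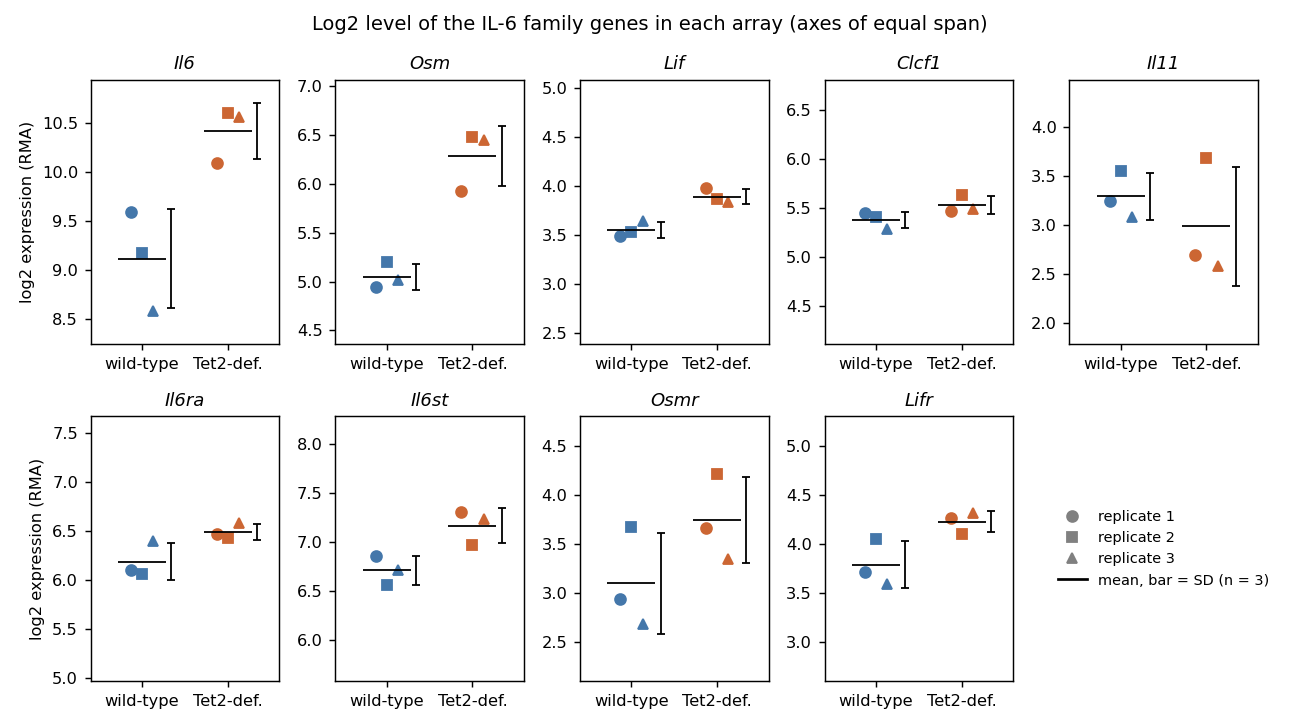
Log2 expression (RMA) of each of the 9 genes in each array, wild-type in blue and Tet2-deficient in orange, with the replicate number as the marker shape, the group mean as a line and the SD (n = 3) as a bar; all panels span the same number of log2 units. The groups are farthest apart for Il6 and Osm, overlap for Il11 and Osmr, and are separated by 0.19 or less for the other 5 genes.

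Il6 encodes the founding cytokine of the family, an inducer of the acute phase response. Its log2 level was 10.09, 10.60 and 10.57 in the Tet2-deficient arrays against 9.60, 9.17 and 8.59 in wild-type arrays. The lowest Tet2-deficient array thus lay 0.49 above the highest wild-type array, and the wild-type cultures differed more among themselves (SD 0.51) than the Tet2-deficient ones (SD 0.29). The change was 1.30 ± 0.24 (limma adjusted p = 0.0477), a fold of 2.46 with a 95% confidence interval of 1.68 to 3.61. The size was steadier than the call: with each array left out in turn the change ran from 1.03 to 1.54, but the call was lost in 5 of these 6 fits, all except the one without wild-type replicate 1 (adjusted p = 0.0287 to 0.175). It was also lost with cyclic loess between arrays (adjusted p = 0.0567) and with the replicate number as a block (0.0695).

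Osm encodes oncostatin M, a product of activated macrophages and neutrophils that acts mainly on stromal cells. It read 5.92, 6.48 and 6.44 in the Tet2-deficient arrays against 4.94, 5.20 and 5.01 in wild-type arrays. Here the wild-type cultures were tightly grouped (SD 0.13) and the gap between the groups, 0.73, was the widest among the 9 members. The change was 1.23 ± 0.17 (limma adjusted p = 0.0162), a fold of 2.35 with an interval of 1.81 to 3.04. The call ended without Tet2-deficient replicate 3 (adjusted p = 0.0846) or wild-type replicate 3 (0.0736) and held without any other array, while the change stayed between 1.13 and 1.41. In both genes Tet2-deficient replicate 1 was the lowest of its group.

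The RefSeq tables of assembly GRCm38.p6 give promoter windows, from 250 bases before to 50 bases after an annotated start, for 7 of the 9 members, and none for Osm and Clcf1. The window of Il6 is printed as that of the called ligand, and those of Lif, the next gene to Osm, and of the shared receptor chain Il6st are set beside it for comparison. They lie on the plus strand at chr5:30012864-30013163, chr11:4257318-4257617 and chr13:112463820-112464119, each with its start site region near the end of the line. Capitals mark matches, on either strand, to the motifs GGGANTTTC (NF-kB), TGANTCA (AP-1), TGACGTCA (CRE), TTGCNNAA (C/EBP) and TTCNNNGAA (STAT), and no match overlapped another.
Il6: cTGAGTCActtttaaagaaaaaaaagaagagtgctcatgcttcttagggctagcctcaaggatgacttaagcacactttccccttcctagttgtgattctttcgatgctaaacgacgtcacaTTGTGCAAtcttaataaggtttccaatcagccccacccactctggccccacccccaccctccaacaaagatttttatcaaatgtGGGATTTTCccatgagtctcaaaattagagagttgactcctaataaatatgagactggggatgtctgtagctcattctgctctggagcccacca
Lif: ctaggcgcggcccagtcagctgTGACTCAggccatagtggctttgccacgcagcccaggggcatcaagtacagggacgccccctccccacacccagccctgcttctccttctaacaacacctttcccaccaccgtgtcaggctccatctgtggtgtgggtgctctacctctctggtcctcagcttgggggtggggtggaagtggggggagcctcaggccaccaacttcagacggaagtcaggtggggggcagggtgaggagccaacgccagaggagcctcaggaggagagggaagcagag
Il6st: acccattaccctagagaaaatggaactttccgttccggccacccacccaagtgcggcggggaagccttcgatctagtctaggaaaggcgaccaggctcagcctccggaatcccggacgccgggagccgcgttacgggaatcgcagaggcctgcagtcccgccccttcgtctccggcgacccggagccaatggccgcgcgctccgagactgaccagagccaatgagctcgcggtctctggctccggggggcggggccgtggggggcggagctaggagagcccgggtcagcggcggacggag

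The Il6 window held an NF-kB match that begins 44 bases before the start, a C/EBP match at 128 and an AP-1 match at 249. The NF-kB letters occur in 1.11% of the 32851 promoter windows in the table, those of C/EBP in 10.8% and those of AP-1 in 7.81%. Among the other windows of members, an AP-1 match was found in Lif, in 1 of 2 windows of Il11 and in Osmr. The Il6ra, Il6st and Lifr windows held none of the 5 motifs. The CRE letters (1.79% of windows) and the STAT letters (8.30%) were found in none of the 9 windows of members. The windows were also counted for CG dinucleotides, the sites at which DNA is mostly methylated: Il6 had 3, Lif 7 and Il11 1 and 13, whereas Il6ra had 25, Osmr 22, Il6st 33 and Lifr 53 and 4, beside a median of 7 over all windows. Methylation was not analysed here, and these letters are a description of the sequence only.

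The other ligands did not pass the test. Lif, which encodes leukemia inhibitory factor, a cytokine that keeps stem cells undifferentiated, read 3.98, 3.86 and 3.83 in the Tet2-deficient arrays against 3.49, 3.53 and 3.64 in wild-type arrays. These groups did not overlap, but the difference was small and close to the array medians, a range in which changes tend to be compressed (0.34 ± 0.12, limma adjusted p = 0.194). Clcf1 encodes a ligand that is secreted with a partner chain and binds the ciliary neurotrophic factor receptor. Its levels of 5.47, 5.64 and 5.49 against 5.45, 5.41 and 5.28 were separated by 0.02 (change 0.15 ± 0.12, adjusted p = 0.580, 95% confidence interval -0.11 to 0.42).

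Il11 encodes a cytokine of stromal cells with roles in bone and fibrosis, and its feature was above the array median in 1 of 6 arrays. It read 2.69, 3.69 and 2.58 in the Tet2-deficient arrays against 3.24, 3.55 and 3.07 in wild-type arrays. The groups overlapped: Tet2-deficient replicate 2 was the highest of the 6 arrays and the other two of its group were the lowest. The change was -0.31 ± 0.27 (adjusted p = 0.641). Without that array it was -0.66 (adjusted p = 0.115), whereas it was -0.16 without Tet2-deficient replicate 1 and -0.10 without replicate 3 (adjusted p = 0.880 and 0.927).

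None of the 4 receptor chains passed, although all 4 had a change above 0 and an unadjusted p under 0.05, as 7.63% of all features had. Il6st, the shared signalling chain, read 7.31, 6.97 and 7.23 in the Tet2-deficient arrays against 6.86, 6.56 and 6.72 in wild-type arrays, without overlap. Its change was 0.46 ± 0.14 (limma adjusted p = 0.150), a fold of 1.37 with an interval of 1.11 to 1.70. Among the 7 members that were not called, it had the smallest adjusted p. Il6ra, the chain that binds IL-6 itself, read 6.46, 6.43 and 6.58 against 6.10, 6.05 and 6.40. Its groups were separated by 0.03, wild-type replicate 3 coming close to the Tet2-deficient arrays (change 0.31 ± 0.13, adjusted p = 0.3004).

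Lifr encodes the LIF receptor chain, which also serves the Clcf1 product. It read 4.27, 4.11 and 4.32 in the Tet2-deficient arrays against 3.72, 4.06 and 3.59 in wild-type arrays. The gap of 0.05 was set by replicate 2 of both groups, and the change was 0.44 ± 0.15 (adjusted p = 0.183). Osmr encodes the chain that is particular to oncostatin M and is typical of fibroblasts, endothelium and epithelium. Its levels were 3.67, 4.22 and 3.35 in the Tet2-deficient arrays against 2.94, 3.67 and 2.69 in wild-type arrays. The groups overlapped, with SDs of 0.44 and 0.51, and the change of 0.65 ± 0.28 did not pass (adjusted p = 0.295), although it was the largest of any receptor chain. For the receptor chains the 95% confidence intervals reached from just above no change to a fold of 1.52 for Il6ra, 1.71 for Lifr and 2.42 for Osmr, so rises of that size are not excluded by these arrays.

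**Figure D2:**
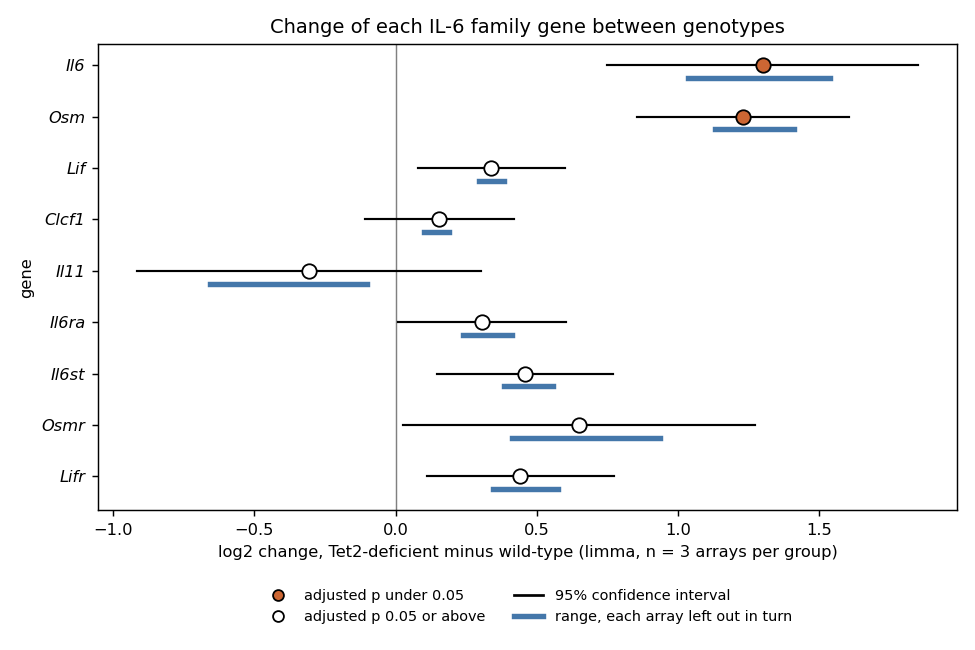
Log2 change, Tet2-deficient minus wild-type, of each gene with its 95% confidence interval (black, limma, n = 3 arrays per group) and the range when each array is left out in turn (blue). Il6 and Osm, with changes of 1.30 and 1.23, are filled because their adjusted p is under 0.05; the other 7 lie between -0.31 and 0.65.

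Other cell types were followed by their markers. Markers of mesothelium and fibroblasts, the stromal cells of the peritoneum, averaged 4.63, 5.12 and 4.42 over 14 genes in replicates 1 to 3 of the Tet2-deficient group, and 4.26, 4.60 and 4.33 in those of the wild-type group. Changes were above 0 for 11 of the 14 (median 0.11), beside 42.1% of all features. Tet2-deficient replicate 2 was the highest array for 8 of these 14 genes. Among them, the collagen gene Col1a1 read 7.37, against 5.09 to 5.96 in the other arrays. The proteoglycan gene Dcn read 6.18, 6.88 and 5.57 in the Tet2-deficient arrays against 5.02, 5.12 and 4.71 in wild-type arrays, without overlap. Tet2-deficient replicate 2 was also the highest array for 5 of the 9 members, Il6, Osm, Clcf1, Il11 and Osmr. The share of all features highest in that array was not analysed here. For Il6 and Osm, replicate 3 of the same group was close, at 10.57 and 6.44 against 10.60 and 6.48. The arrays next in stromal mean, replicate 1 of the Tet2-deficient and replicate 2 of the wild-type group, were also next for Osmr, at 3.67 in both. The order then broke: wild-type replicate 1, lowest in stromal mean at 4.26, read 2.94 for Osmr. Wild-type replicate 3, at 4.33, read 2.69, and Tet2-deficient replicate 3, at 4.42, read 3.35. Of the 14 markers, 1 rose, the platelet-derived growth factor receptor Pdgfrb (change 0.91 ± 0.16, adjusted p = 0.0361), and 13 did not pass; Pdgfrb lost its call in 5 of 6 fits with an array left out. Pdpn, also on the list, was at 11.0 to 11.3 in every array, and 2 of the 14 were below the array medians throughout. Without Tet2-deficient replicate 2 the change of Osmr was 0.41 (adjusted p = 0.487), and without wild-type replicate 2 it was 0.94 (adjusted p = 0.154). With the replicate number as a block its adjusted p = 0.0588. Whether stromal cells contribute to Osmr and Il11 was not tested.

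**Figure D3:**
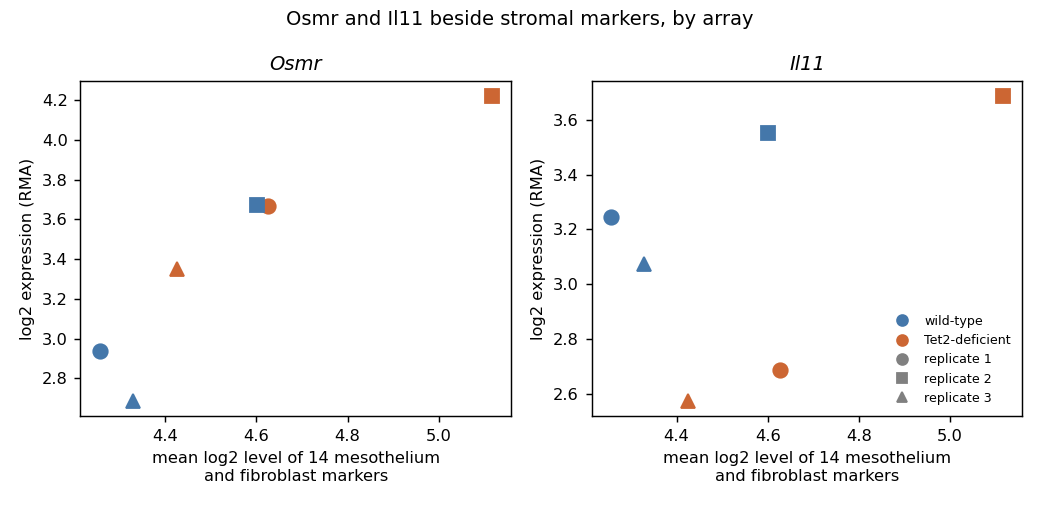
Log2 expression of Osmr (left) and Il11 (right) in each array against the mean log2 level of 14 mesothelium and fibroblast markers, wild-type in blue and Tet2-deficient in orange, replicate number as marker shape. Tet2-deficient replicate 2 is at the upper right in both panels, at 4.22 for Osmr and 3.69 for Il11 with a marker mean of 5.12, while Tet2-deficient replicate 3, with a marker mean of 4.42, is at 3.35 for Osmr and lowest of all at 2.58 for Il11. Neither gene followed the marker mean throughout. Tet2-deficient replicate 1 has a marker mean of 4.63 but is at 2.69 for Il11. Wild-type replicate 1 has the lowest marker mean, 4.26, and is at 3.24 for Il11. For Osmr it is at 2.94, above wild-type replicate 3 at 2.69.

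Markers of resident peritoneal macrophages, a population distinct from the recruited cells, were on average higher in the Tet2-deficient arrays, as were Il6 and Osm. Their mean over 12 genes was 6.10 to 6.48 in the Tet2-deficient arrays and 5.35 to 5.73 in the wild-type arrays, and 4 of the 12 rose: the lubricin gene Prg4 (change 2.46), coagulation factor gene F5 (1.83), Tgfb2 (1.42) and the phosphatidylserine receptor gene Timd4 (1.19). The other 8 did not pass, and changes were above 0 for 11 of the 12. Gata6 had 0.23 ± 0.21 (limma adjusted p = 0.657). Cd9 alone had a change below 0, at -0.32 ± 0.11 (adjusted p = 0.212), with its groups apart. The median change of that list was 0.87, and 0 of its genes lay below the array median throughout. With an array left out in turn, Prg4 and F5 lost their call in 2 of 6 fits and Tgfb2 and Timd4 in 5. Among the 8 macrophage markers, whose means also lay higher in every Tet2-deficient array, 2 rose and 6 did not pass, with a median change of 0.08. Those that rose were the integrin gene Itgam (0.97 ± 0.14, adjusted p = 0.0211) and Cd14, the lipopolysaccharide co-receptor gene (0.97 ± 0.13, adjusted p = 0.0152), which lost their call in 5 and 3 of 6 fits with an array left out. The list was split in direction, with changes above 0 for 5 of the 8. Changes were below 0 for Mrc1 (-0.70 ± 0.15, limma adjusted p = 0.0701, groups apart), Fcgr1 (-0.51 ± 0.19, adjusted p = 0.230) and Mertk (-0.10 ± 0.12, adjusted p = 0.746). Monocyte markers averaged 6.20 to 6.58 over 8 genes in the Tet2-deficient arrays and 5.97 to 6.11 in the wild-type arrays, with 0 below the array median throughout. Of these, 1 rose, the fibronectin gene Fn1 (1.78 ± 0.26, adjusted p = 0.0219, lost in 5 of 6 such fits), 7 did not pass, and the median change was 0.03. Changes were above 0 for 4 of the 8, with Ly6c2 at 1.01 ± 0.20 (limma adjusted p = 0.0558). They were below 0 for Vcan (-0.32), Hp (-0.28), F13a1 (-0.25) and Chil3 (-0.06). The part of these populations in the levels of Il6 and Osm was not tested.

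Other genes of the pathway were read from lists written with earlier results of these arrays known. Of 9 measured genes for other ligands and receptors of the family, 0 passed, and their median change was 0.06. The smallest p among them was that of Ebi3, a subunit shared by IL-27 and IL-35, at 6.91, 6.36 and 6.42 against 5.93, 6.10 and 5.97 (change 0.56 ± 0.16, adjusted p = 0.129). The IL-27 receptor gene Il27ra (0.41 ± 0.16, adjusted p = 0.259) and the IL-31 receptor gene Il31ra (-0.23 ± 0.12, adjusted p = 0.416) followed, and 5 of the 9 features lay below the array medians in every array.

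Of 12 measured genes for signal transducers downstream of gp130, 0 passed and 10 had a change above 0, with a median of 0.16. Pik3ca, a catalytic subunit of phosphoinositide 3-kinase, had a change of 0.56 ± 0.12 (adjusted p = 0.0640) and the docking protein gene Gab1 0.53 ± 0.11 (adjusted p = 0.0677). Each of these passed under 3 of 13 other settings. Stat3, the transcription factor of the pathway, read 9.42, 9.05 and 9.33 in the Tet2-deficient arrays against 8.84, 9.02 and 8.72 in wild-type arrays. Its groups were just apart, by way of replicate 2 of each, and its change of 0.41 ± 0.14 did not pass (adjusted p = 0.203).

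The 10 negative regulators of gp130 signalling had a median change of 0.06 and 0 passed. Socs3, which blocks gp130 directly and is induced by STAT3, read 9.21, 9.31 and 9.29 against 9.03, 9.10 and 8.71 (change 0.32 ± 0.14, adjusted p = 0.285). Cish, a related inhibitor of cytokine receptors, had 0.84 ± 0.23 with overlapping groups (adjusted p = 0.118), and the phosphatase gene Ptpn6 had -0.49 ± 0.16 (adjusted p = 0.171). Of 4 genes for shedding of receptors from the cell surface 0 passed: the protease genes Adam10 (0.32 ± 0.12, adjusted p = 0.231) and Adam17 (0.12 ± 0.18, adjusted p = 0.799), Rhbdf1, and Rhbdf2, which brings ADAM17 to the surface (0.36 ± 0.12, adjusted p = 0.196).

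Among 31 target genes of STAT3, 2 of which are the members Il6st and Osmr, 2 rose, 1 fell and 28 did not pass, and the median change was 0.02. The fall was that of Hamp, which encodes hepcidin, the iron-regulating peptide that IL-6 induces in liver. It read 5.83, 6.03 and 6.24 in the Tet2-deficient arrays against 7.41, 8.11 and 8.16 in wild-type arrays, without overlap and opposite in direction to Il6. The change was -1.86 ± 0.21 (limma adjusted p = 0.00832), and the call ended without Tet2-deficient replicate 1 (0.0539) or 3 (0.0521). Vegfa, an angiogenic growth factor gene, rose by 0.99 ± 0.17 (adjusted p = 0.0330), and Fosl2, an AP-1 transcription factor gene, by 0.96 ± 0.18 (adjusted p = 0.0477). Neither call outlasted the loss of any single array, with an adjusted p = 0.0561 to 0.120 for Vegfa and 0.0571 to 0.174 for Fosl2. Saa3 (change -0.19) and Lcn2 (0.56), also on the list, were not called.

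**Figure D4:**
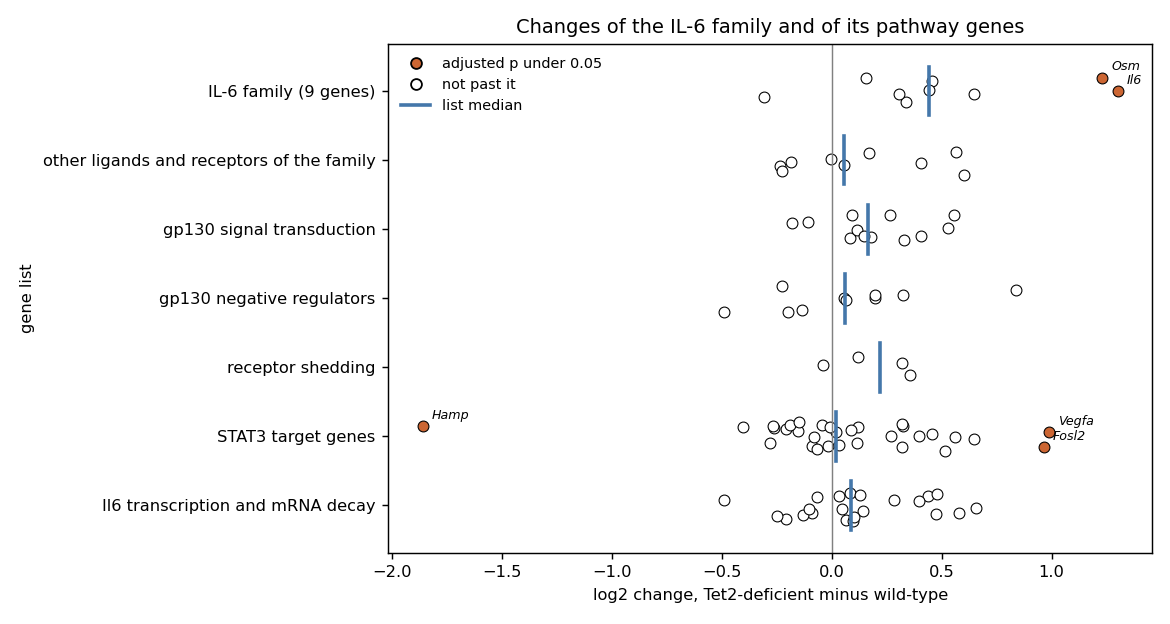
Log2 change, Tet2-deficient minus wild-type, of each measured gene (points) in the IL-6 family and in 6 lists of pathway genes, with the list median as a blue line and called genes filled and named. Il6 and Osm in the top row, and Hamp, Vegfa and Fosl2 among the STAT3 targets, are the called genes, and the list medians run from 0.44 for the IL-6 family to 0.02 for the STAT3 targets.

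Of 22 genes for factors that drive Il6 transcription or control decay of its mRNA, 0 passed, 15 had a change above 0 and the median was 0.09. The 3 with the smallest p, Rc3h2, Arid5a and Rc3h1, act on mRNA stability and were not called. Rc3h2 and Rc3h1, the roquin proteins that bind stem loops of cytokine mRNAs and promote their decay, had changes of 0.66 ± 0.14 (adjusted p = 0.0599) and 0.58 ± 0.15 (adjusted p = 0.110). Arid5a, which protects Il6 mRNA from decay, read 6.40, 6.41 and 6.47 against 6.96, 6.96 and 6.83, a change of -0.49 ± 0.11 (adjusted p = 0.0754). Rc3h2 passed under 3 and Arid5a under 2 of 13 other settings. Other genes of the list that act on mRNA had smaller changes (limma adjusted p = 0.645 to 0.887). These were Zc3h12a (0.14), Zfp36 (-0.13), Zfp36l1 (-0.10), Zfp36l2 (0.10) and Tent5c (0.10). A further gene of the list, Nfkbiz, which encodes an NF-kB cofactor needed for Il6 induction, was at 0.48 ± 0.14 (adjusted p = 0.129).

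Members also share positions in the genome. Osm and Lif are next to each other on chromosome 11, and Osmr and Lifr on chromosome 15, with 0 other measured named genes between either pair in the RefSeq order. Around Osm and Lif, 0 of 6 flanking genes passed (3 on each side, from Sf3a1 to Ascc2), with changes from -0.30 for Hormad2 to 0.33 for Mtmr3. Osm thus stood at 1.23 between Castor1 at 0.09 and Lif at 0.34. Around Osmr and Lifr 0 of 6 passed, and the largest change was that of Rictor, the neighbour of Osmr and a component of the kinase complex mTORC2 (0.64 ± 0.16, adjusted p = 0.0900).

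Likeness to Il6 and Osm was measured over the 6 arrays as the root mean square difference of log2 levels, each gene centred on its own mean, among 19431 other named genes. The genes most like Il6 were the Wnt receptor gene Fzd1 (difference 0.14), the neutrophil chemoattractant gene Cxcl2 (0.15), Timd4 (0.17), Flrt3 (0.18) and Acpp (0.18). Fzd1 read 6.76, 7.33 and 7.48 against 6.47, 6.18 and 5.66, with the same order of the wild-type arrays as Il6. Those most like Osm were the collagenase gene Mmp13 (0.17), the macrophage growth factor gene Csf1 (0.18), Cd14 (0.20), the chemokine gene Ccl3 (0.20) and Cxcl5 (0.21). Il6 and Osm were not among each other's nearest genes. At a difference of 0.32, Osm ranked 71st for Il6 and Il6 82nd for Osm, and the wild-type arrays ranked in different orders for the pair.

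**Figure D5:**
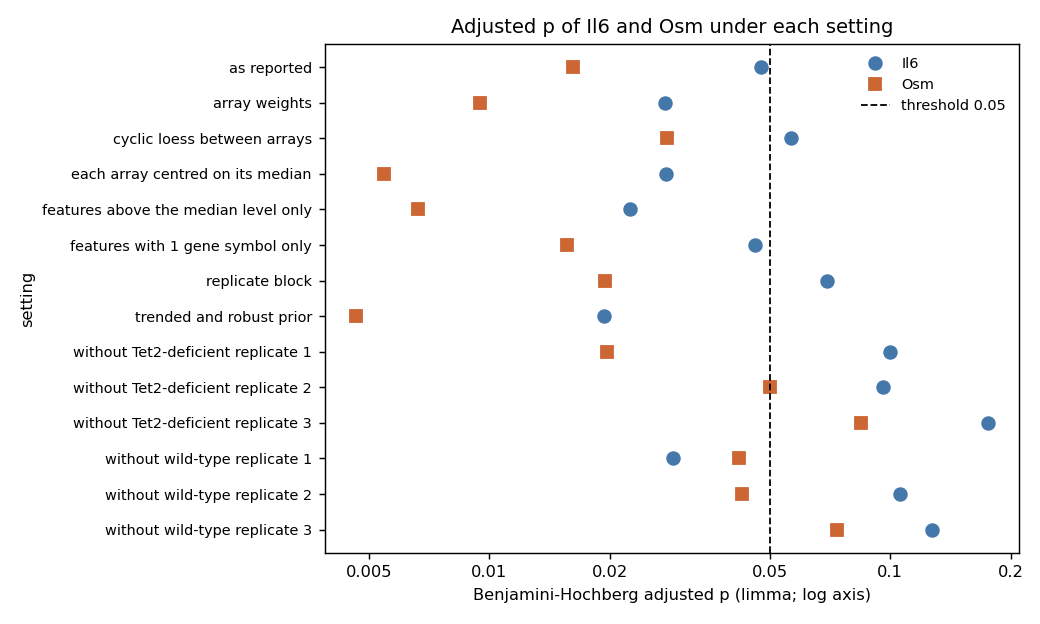
Benjamini-Hochberg adjusted p (limma, log axis) of Il6 (circles) and Osm (squares) as reported and under 13 other settings, with the threshold of 0.05 dashed. Osm lies left of the line in 11 of the 13 and Il6 in 6 of the 13.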

How the data were processed

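Each culture gave 1 Affymetrix array. The deposited values are log2 expression, which the authors obtained with RMA in affy 1.36.1, per the submitters' processing notes. They span 0.35 to 12.7 and were used as they stand. Because RMA forces all arrays towards a shared distribution, a shift of all genes alike cannot be seen. Array model, probe design and build: not given in the sources used here. Arrays have no depth, and their number limits the precision. The labels name biological replicates and the design 3 mice a group, so p-values reflect the spread between cultures of different mice.

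All 25206 features were fitted with limma 3.58.1 (lmFit and eBayes, R 4.3.3) in a two-sided test, and p-values were Benjamini-Hochberg adjusted over every feature. A permutation test of 3 against 3 arrays cannot go below 0.1 and was not used. On simulated data of 25206 features the fit called 82% of genes with a log2 change of 1 and 100% of those with 2, and 4.21% of calls were unchanged genes. These values were drawn independently from the variance model of the fit itself, with no array effects. The shares therefore check the code and may not hold for the real arrays. Symbols came from the platform annotation (23185 features with 1 symbol, 0 with several, 2021 with none). Genes of the lists without a feature were not analysed here. The members, gene lists and motifs were chosen with earlier results of these data known. Genes were named by this rule: the members and Tet2, list genes past the threshold or else the 3 with the smallest p, 3 neighbours on each side, and the 5 most alike genes. Col1a1, Dcn, Pdpn, Rhbdf1, Saa3, Lcn2, Nfkbiz, Gata6, Cd9, Mrc1, Fcgr1, Mertk, Ly6c2, Vcan, Hp, F13a1 and Chil3 were named after their values were seen. So were S100a8, Csf3r, Mmp8, Zc3h12a, Zfp36, Zfp36l1, Zfp36l2 and Tent5c. Promoter windows came from RefSeq (GRCm38.p6). The alternatives were other scalings, filters, priors, weights, a replicate block and each array left out.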

Additional observations from a re-analysis of the deposited data

How the results depend on the processing

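The fit was repeated under 13 settings, of which 6 left out 1 array each. The count of all features past the threshold was 240 as reported, 498 with array weights, 846 with features above the median level only, 814 with a trended and robust prior, and 11 to 155 with an array left out. Of the 9 members 2 passed as reported, and 1 passed with cyclic loess between arrays and 1 with the replicate block; 0 to 2 passed with an array left out. The change of Il6 was 1.27 with cyclic loess (adjusted p = 0.0567) and 1.30 with the replicate block (adjusted p = 0.0695), neither past the threshold, and 1.03 to 1.54 with an array left out (adjusted p = 0.0287 to 0.175). The change of Osm was 1.13 to 1.41 with an array left out (adjusted p = 0.0196 to 0.0846), and the value without Tet2-deficient replicate 2 (0.04997) lay on the threshold. Adam17, not called, had -0.0510 without Tet2-deficient replicate 1 and 0.278 without replicate 2 of that group. None of the other 7 members passed under any setting run, and each kept its direction. Il11 and Osmr have no value with features above the median level only. The adjusted p nearest the threshold among these 7 was that of Osmr with the replicate block, 0.0588. Replicate numbers were not taken to pair cultures in the reported fit. Deviations of same-numbered arrays correlated at 0.08, 0.19 and 0.02, and those of differently numbered arrays at -0.14 to 0.06. Whether same-numbered cultures shared a batch was not tested, and the replicate block is given as an alternative for that reason. Levels near or below the array medians, as for Lif, Il11, Osmr and Lifr, may understate changes, and the causes of the changes between settings were not tested.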
